A study of Mus musculus with 16 samples.

Results

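The 10 genes described here encode the core of transforming growth factor beta (TGF-beta) signalling: the ligands Tgfb1, Tgfb2 and Tgfb3, the receptors Tgfbr1, Tgfbr2 and Tgfbr3, the receptor-activated SMADs Smad2 and Smad3, and the feedback genes Smad7 and Skil. They were chosen by gene name, with earlier results of these data known, and matched by NCBI Gene ID among the 36528 IDs of the files. All 10 were found, and all 10 passed the filter on low counts that left 18072 genes for testing. TGF-beta ligands are secreted in a latent complex and, once released, bind a receptor pair made of Tgfbr2 and Tgfbr1, with Tgfbr3 (betaglycan) as a co-receptor that presents Tgfb2 above all. The activated pair phosphorylates Smad2 and Smad3, which join Smad4 and enter the nucleus, while Smad7 blocks the receptors and Skil (SnoN) represses SMAD target genes. In the intestine the pathway restrains epithelial growth, and tumours often lose part of it while the surrounding stroma goes on responding to the ligands.

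Gene expression was measured by RNA sequencing of cells that had been sorted by flow cytometry into GFP+ and GFP- fractions from mouse tumours labelled AKVPSL and AKVPL. The 4 groups were AKVPSL GFP+, AKVPSL GFP-, AKVPL GFP+ and AKVPL GFP-, with 4 libraries each. The design text names the fractions by Lgr5, a stem cell receptor of the intestinal crypt, so GFP is taken here as a reporter of that gene. The labels do not spell out the genotype letters, and mouse models of intestinal cancer with such names carry changes in Apc, Trp53 and Smad4 among other genes. No label gives age, treatment, the number of tumours or lines behind a group, or a gate other than GFP, and none says that replicates came from separate animals. P-values thus reflect how much these libraries vary, and part of that variation may be technical.

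Total counts per library ran from 10.881 to 41.602 M (M, 1e6 counts). All 16 titles name the colon, but the tissue field names the colon in 1 library alone, AKVPSL GFP- replicate 1, and the small intestine in the other 15. Lgr5 exceeded its GFP- level in the GFP+ cells by 1.99 ± 0.15 log2 units (SE) in AKVPSL (edgeR adjusted p = 1.17e-07) and by 2.18 ± 0.16 in AKVPL (edgeR adjusted p = 1.88e-08). Summed markers of other cell types moved with the sort, apart from the endothelial sum in AKVPSL. Single markers could differ from their sum. Notch3, of the smooth muscle list, was higher in GFP+ cells by 0.90 ± 0.17 log2 in AKVPSL and 0.47 ± 0.17 in AKVPL. The summed level of 18 fibroblast markers was 264 to 1262 CPM (counts per 1e6 after TMM scaling) in AKVPSL GFP+ libraries and 1890.5 to 3337 CPM in AKVPSL GFP- libraries. It was 748 to 1441 CPM in AKVPL GFP+ libraries and 5325 to 11226 CPM in AKVPL GFP- libraries, with 17 of 18 markers detected in every group and Tcf21 at 0. For 18 leukocyte markers the sums were 57.0 to 279.9 CPM (AKVPSL GFP+), 759 to 3148 CPM (AKVPSL GFP-), 423 to 1151 CPM (AKVPL GFP+) and 4027 to 7203 CPM (AKVPL GFP-). Endothelial, smooth muscle and mast cell lists also had their highest medians in AKVPL GFP- libraries, at 518, 531 and 450.3 CPM. The endothelial sums of AKVPSL GFP- libraries overlapped those of AKVPSL GFP+ and of AKVPL GFP- libraries. They were 162 to 200 CPM in AKVPSL GFP+, 158 to 517 CPM in AKVPSL GFP- and 427 to 806 CPM in AKVPL GFP- libraries. AKVPL GFP+ libraries had 97.6 to 142 CPM, below all others. Epithelial markers summed to 11690.0 to 14802 CPM in the GFP+ groups and the AKVPSL GFP- group, and to 10256 to 12601 CPM in AKVPL GFP- libraries, with Cdx1 at 0 in both GFP- groups. In such bulk libraries fewer cells of a type and less RNA per cell cannot be told apart, and the part of other cell types in the differences below was not tested.

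Tgfb1 and Tgfb2 fell in the GFP+ cells of both genotypes, and Tgfb3 fell in those of AKVPL. Tgfb1 (Gene ID 21803, GRCm38.p6 chromosome 7, 25687002 to 25705077) is the ligand gene used by many cell types. With replicates 1 to 4 in order here and below, its level was 76.6, 72.1, 71.2 and 74.0 CPM in AKVPSL GFP+ libraries and 129, 88.6, 155 and 137 CPM in AKVPSL GFP- libraries. In AKVPL it was 59.0, 53.0, 65.8 and 50.6 CPM in GFP+ libraries and 177, 203, 238 and 129.9 CPM in GFP- libraries. Every GFP+ library lay below every GFP- library of its genotype, and the GFP+ libraries varied less among themselves (SD 2.38 CPM against 27.9 CPM in AKVPSL, and 6.80 CPM against 45.6 CPM in AKVPL). The log2 difference was -0.79 ± 0.17 (SE) in AKVPSL (edgeR adjusted p = 0.000896) and -1.71 ± 0.17 in AKVPL (edgeR adjusted p = 1.02e-06). The fall was thus smaller in AKVPSL, and the difference between the sort effects, AKVPSL minus AKVPL, was 0.92 ± 0.23 (edgeR adjusted p = 0.0106).

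**Figure D1:**
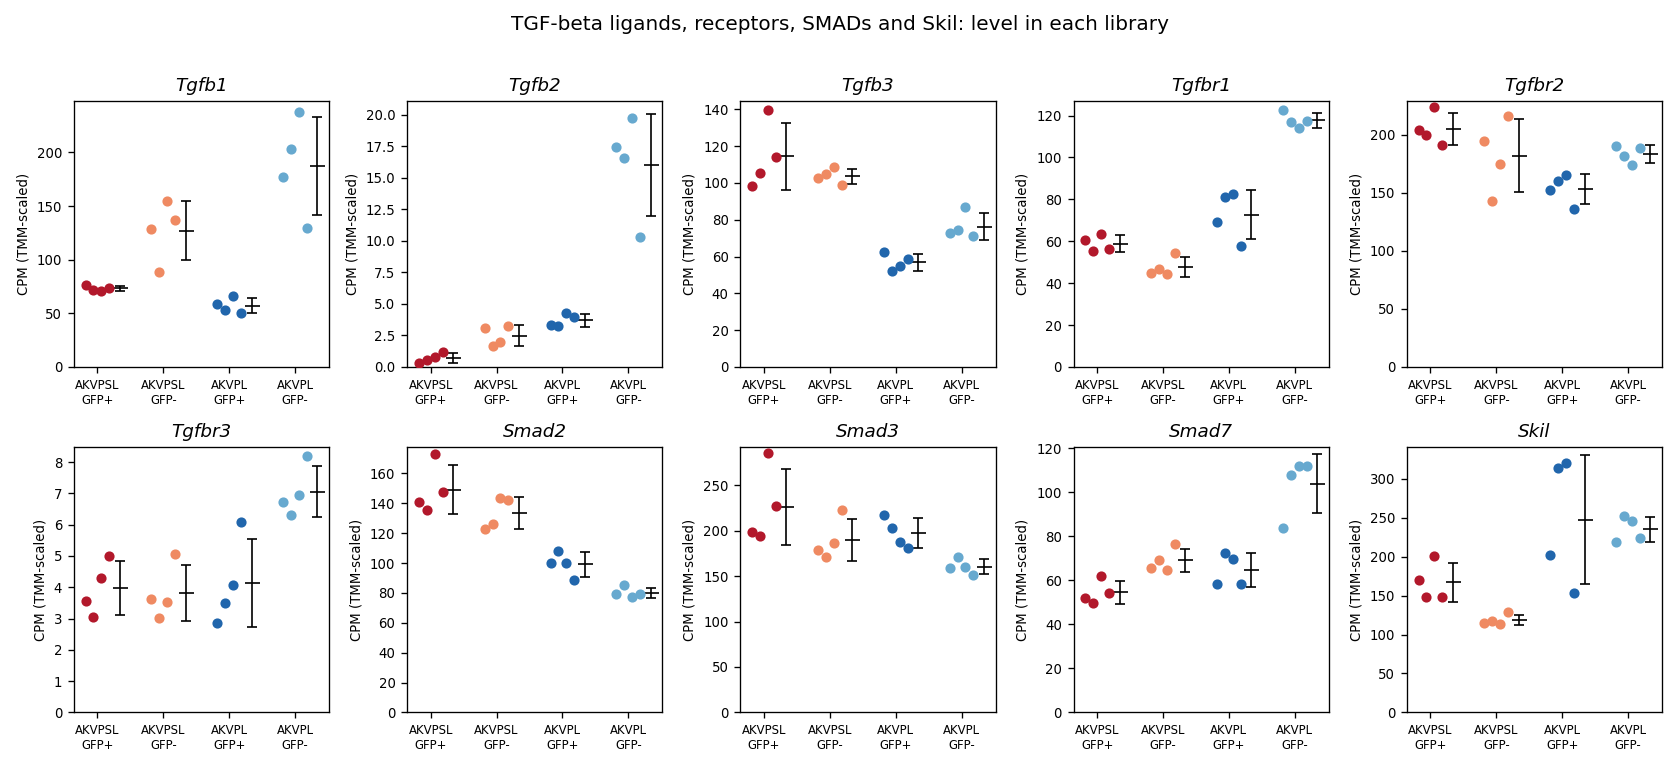
Level of each of the 10 genes in each library, in TMM-scaled CPM on linear axes that start at 0; points are libraries (replicates 1 to 4 from left to right), and the bar beside them is the mean ± SD of 4 libraries. Tgfb1, Tgfb2, Tgfbr1, Tgfbr3 and Smad7 have their highest group means in AKVPL GFP- libraries, whereas Tgfb3 and Smad2 have theirs in AKVPSL GFP+ libraries.

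Tgfb2 (Gene ID 21808, chromosome 1, 186622787 to 186709697), the ligand that relies on Tgfbr3, had the lowest mean RPKM of the 10 genes in both GFP+ groups. It had 0.297, 0.536, 0.766 and 1.19 CPM in AKVPSL GFP+ libraries, 80 reads in all, against 3.11, 1.62, 1.95 and 3.23 CPM in AKVPSL GFP- libraries. In AKVPL it had 3.30, 3.21, 4.26 and 3.99 CPM in GFP+ libraries and 17.5, 16.5, 19.8 and 10.3 CPM in GFP- libraries. Groups did not overlap in any of the comparisons by sort or genotype. Tgfb2 was lower in GFP+ cells by sort in AKVPSL (-1.88 ± 0.34 log2, edgeR adjusted p = 0.000242) and in AKVPL (-2.13 ± 0.30, edgeR adjusted p = 2.45e-05). It was also lower in AKVPSL than in AKVPL, by -2.44 ± 0.34 log2 in GFP+ cells (edgeR adjusted p = 6.40e-06) and -2.69 ± 0.31 in GFP- cells (edgeR adjusted p = 5.30e-07), which are the widest genotype gaps among the 10 genes. The sort effects on Tgfb2 did not differ detectably between the genotypes (0.24, 95% interval -0.72 to 1.20).

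Tgfb3 (Gene ID 21809, chromosome 12, 86056743 to 86079041), a ligand gene often expressed in mesenchymal cells, behaved otherwise. It stood at 98.6, 105, 139.9 and 114 CPM in AKVPSL GFP+ libraries and 103, 105, 109 and 98.8 CPM in AKVPSL GFP- libraries, which overlapped. AKVPL GFP+ libraries had 62.5, 52.0, 54.7 and 58.8 CPM and AKVPL GFP- libraries 72.6, 74.6, 87.2 and 70.9 CPM, which did not. Tgfb3 was lower in GFP+ cells of AKVPL (-0.42 ± 0.10 log2, edgeR adjusted p = 0.00387), while in AKVPSL the value was 0.14 ± 0.10 (edgeR adjusted p = 0.273). The difference of the sort effects was 0.56 ± 0.15 (edgeR adjusted p = 0.0121). Between the genotypes it ran opposite to Tgfb2, higher in AKVPSL than in AKVPL by 1.00 ± 0.11 in GFP+ cells (edgeR adjusted p = 2.17e-07) and 0.44 ± 0.10 in GFP- cells (edgeR adjusted p = 0.00127). When libraries were scaled on the epithelial marker genes, here called epithelial scaling, the GFP- value was 0.16 and no longer past the threshold. Of the 17 epithelial markers tested, 10 were themselves higher and 2 lower in AKVPSL in GFP- cells. By sort in AKVPL 7 were higher and 0 lower in GFP+ cells. This scaling thus rests in part on genes that passed the threshold under the main scaling.

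The genotype comparison of Tgfb1 depended on the sort. In GFP+ cells its value for AKVPSL minus AKVPL was 0.36 ± 0.17 log2 and did not pass (edgeR adjusted p = 0.0737), although the 4 AKVPSL libraries lay above the 4 AKVPL libraries. In GFP- cells Tgfb1 was lower in AKVPSL by -0.56 ± 0.16 (edgeR adjusted p = 0.00697), with groups that overlapped.

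Tgfb1, Tgfb2, Tgfb3, Tgfbr1, Tgfbr3 and Smad7 were all lower in GFP+ cells of AKVPL. No promoter of Tgfb3, Tgfbr3 or Smad7 is given here. The promoters of Tgfb1, Tgfb2 and Tgfbr1 are shown. They are RefSeq promoter windows of 300 bases on GRCm38.p6, from 250 bases before the start to 50 after it, printed 5′ to 3′ on the gene's strand. Capitals mark matches to GGCGC or its reverse complement GCGCC, a GC-rich motif that SMAD proteins can bind.
Tgfb1, chr7:25686752-25687051, plus strand: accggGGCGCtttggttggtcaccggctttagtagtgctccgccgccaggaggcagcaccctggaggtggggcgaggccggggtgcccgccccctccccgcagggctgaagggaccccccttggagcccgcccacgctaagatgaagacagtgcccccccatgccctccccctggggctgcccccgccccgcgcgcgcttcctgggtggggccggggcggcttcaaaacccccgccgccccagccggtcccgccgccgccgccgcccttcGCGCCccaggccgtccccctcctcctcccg
Tgfb2, chr1:186705940-186706239, minus strand: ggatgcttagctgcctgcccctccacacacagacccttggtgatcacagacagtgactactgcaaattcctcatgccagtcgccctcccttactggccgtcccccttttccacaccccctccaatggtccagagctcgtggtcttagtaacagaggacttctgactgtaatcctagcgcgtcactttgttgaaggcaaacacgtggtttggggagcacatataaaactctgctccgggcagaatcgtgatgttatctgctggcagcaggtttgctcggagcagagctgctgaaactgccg
Tgfbr1, chr4:47352972-47353271, plus strand: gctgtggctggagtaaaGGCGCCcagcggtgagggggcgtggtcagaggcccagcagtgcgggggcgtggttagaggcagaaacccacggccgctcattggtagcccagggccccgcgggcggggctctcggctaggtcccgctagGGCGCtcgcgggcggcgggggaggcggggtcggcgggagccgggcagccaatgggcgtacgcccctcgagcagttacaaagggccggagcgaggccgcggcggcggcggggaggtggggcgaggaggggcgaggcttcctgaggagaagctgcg
The Tgfb1 window held 2 matches, the Tgfb2 window 0 and this Tgfbr1 window 3, of which 1 pair overlaps as GGCGCC. A second Tgfbr1 window, and those of Tgfbr2 and Smad3, held 0. The SMAD palindrome GTCTAGAC and the CAGA box AGCCAGAC were searched on both strands too and had 0 matches in these 6 windows. No window of Smad2 or Smad7 was among them. Of 32851 promoters in the table, 36.86% held GGCGC, 0.2131% the palindrome and 1.288% the CAGA box. GGCGC is common in GC-rich sequence, and the GC content was 77.0% in the Tgfb1 window, 54.3% in the Tgfb2 window and 74.7% in the first Tgfbr1 window, against a median of 52.7% over the table. A match describes these letters only. The 6 windows searched belong to 5 of the 10 genes. A member without a window here may still have an entry in the promoter table, and its promoter was not examined.

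Among the receptors, Tgfbr1 moved in opposite directions by sort in the 2 genotypes. Tgfbr1 (Gene ID 21812, chromosome 4, 47353222 to 47414926) encodes the kinase receptor that phosphorylates Smad2 and Smad3. Its level was 60.5, 55.3, 63.6 and 56.1 CPM in AKVPSL GFP+ libraries and 44.9, 46.6, 44.4 and 54.5 CPM in AKVPSL GFP- libraries, against 69.4, 81.0, 82.6 and 57.7 CPM in AKVPL GFP+ libraries and 123, 117, 114 and 117 CPM in AKVPL GFP- libraries. GFP+ libraries lay above GFP- libraries in AKVPSL and below them in AKVPL, without overlap. The log2 difference by sort was 0.31 ± 0.11 in AKVPSL (edgeR adjusted p = 0.0226) and -0.70 ± 0.10 in AKVPL (edgeR adjusted p = 5.23e-05), and the sort effects differed by 1.00 ± 0.15 (edgeR adjusted p = 0.000215). The Tgfbr1 call by sort in AKVPSL ended with epithelial scaling (0.25), with no low-count filter (0.28), with only the 2 groups in the fit (0.27), and without any 1 of AKVPSL GFP+ replicates 1 and 3 or AKVPSL GFP- replicates 1 and 3 (0.20 to 0.28). Between the genotypes Tgfbr1 was lower in AKVPSL, by -1.31 ± 0.11 in GFP- cells (edgeR adjusted p = 7.63e-09) and by -0.30 ± 0.10 in GFP+ cells (edgeR adjusted p = 0.0199). For Tgfbr1 the call in GFP+ cells ended with no low-count filter and without AKVPSL GFP+ replicate 2 or 4 or AKVPL GFP+ replicate 2 or 3 (-0.28 to -0.24).

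Tgfbr2 (Gene ID 21813, chromosome 9, 116087695 to 116175363), which encodes the ligand-binding kinase, varied least in its group means among the ligand and receptor genes. AKVPSL libraries had 204, 199.7, 224 and 192 CPM in GFP+ and 194, 143, 175 and 216 CPM in GFP- cells, and AKVPL libraries 153, 160.4, 166 and 136 CPM in GFP+ and 190.2, 182, 174 and 188 CPM in GFP- cells. By sort it did not pass the threshold in AKVPSL (0.17 ± 0.11 log2, edgeR adjusted p = 0.201) or in AKVPL (-0.26 ± 0.11, edgeR adjusted p = 0.0661). In AKVPL the groups nevertheless did not overlap, and the Tgfbr2 value passed the threshold under 12 of the 25 alternatives (values from -0.57 to -0.20 over all of them). In GFP+ cells Tgfbr2 was higher in AKVPSL than in AKVPL by 0.42 ± 0.11 (edgeR adjusted p = 0.00306). In GFP- cells the genotype value was -0.01 (95% interval -0.23 to 0.22), with the AKVPL libraries inside the range of the AKVPSL libraries.

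Tgfbr3 (Gene ID 21814, chromosome 5, 107106567 to 107289629), the co-receptor, was low throughout. It had 3.57, 3.05, 4.30 and 5.01 CPM in AKVPSL GFP+ libraries, 3.64, 3.01, 3.54 and 5.08 CPM in AKVPSL GFP- libraries, 2.84, 3.49, 4.06 and 6.09 CPM in AKVPL GFP+ libraries and 6.73, 6.32, 6.96 and 8.21 CPM in AKVPL GFP- libraries. AKVPL GFP- libraries lay above all others, and the other 3 groups overlapped. Tgfbr3 was lower in GFP+ cells of AKVPL (-0.78 ± 0.23 log2, edgeR adjusted p = 0.0132), and in GFP- cells it was lower in AKVPSL than in AKVPL (-0.88 ± 0.24, edgeR adjusted p = 0.00339). The sort call in AKVPL ended without AKVPL GFP+ replicate 1 (-0.64, edgeR adjusted p = 0.0543, against 0.00105 to 0.0543 over all alternatives). The difference of the sort effects on Tgfbr3 was 0.84 ± 0.33 (edgeR adjusted p = 0.0796) and passed with the replicate number as a block (0.89, edgeR adjusted p = 0.0168, against 0.0168 to 0.157 over all alternatives).

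**Figure D2:**
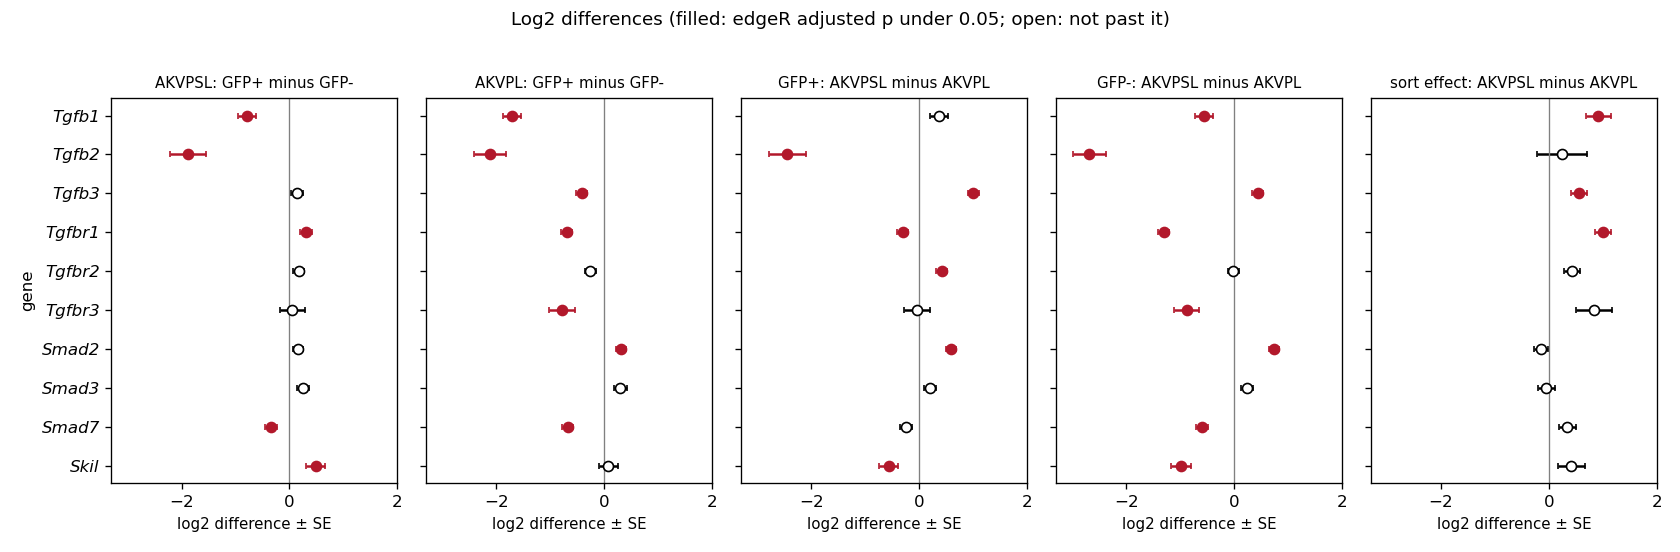
Log2 differences of the 10 genes with their SE in the 5 comparisons, in the direction each panel title gives; filled red points passed an edgeR adjusted p of 0.05 and open points did not. Tgfb1 and Tgfb2 lie left of 0 by sort in both genotypes, and Tgfbr1 lies right of 0 in AKVPSL (0.31) and left of it in AKVPL (-0.70).

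Of the receptor-activated SMADs, Smad2 had its higher levels in AKVPSL in both sorts, as Tgfb3 did, while Smad3 was not called in any comparison. Smad2 (Gene ID 17126, chromosome 18, 76241090 to 76311748) had 141, 136, 173 and 148 CPM in AKVPSL GFP+ libraries and 123, 126, 144 and 142 CPM in AKVPSL GFP- libraries. AKVPL libraries had 100.1, 108, 99.8 and 88.3 CPM in GFP+ and 79.5, 85.0, 77.0 and 79.1 CPM in GFP- cells. All 8 AKVPSL libraries lay above all 8 AKVPL libraries. Smad2 was higher in AKVPSL by 0.59 ± 0.09 log2 in GFP+ cells (edgeR adjusted p = 2.82e-05) and 0.74 ± 0.09 in GFP- cells (edgeR adjusted p = 1.75e-06). By sort it was higher in GFP+ cells of AKVPL by 0.31 ± 0.09 (edgeR adjusted p = 0.0134), a call that ended under 10 of the 25 alternatives, among them DESeq2 size factors (0.21) and epithelial scaling (0.00). In AKVPSL the sort value of Smad2 was 0.16 ± 0.09 and not past the threshold.

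Smad3 (Gene ID 17127, chromosome 9, 63646766 to 63757994), which binds DNA directly, was called in 0 of the 5 comparisons by edgeR's adjusted p, although its unadjusted edgeR p was under 0.05 for the sort in each genotype. Its level was 198, 194, 285 and 227 CPM in AKVPSL GFP+ libraries, 179, 171, 186 and 223 CPM in AKVPSL GFP- libraries, 217, 203, 187 and 180.4 CPM in AKVPL GFP+ libraries and 159, 171, 160.1 and 151 CPM in AKVPL GFP- libraries. In AKVPL every GFP+ library exceeded every GFP- library, with a log2 difference of 0.30 (95% interval 0.05 to 0.54, edgeR adjusted p = 0.0507) that passed with the replicate number as a block (0.29, edgeR adjusted p = 0.0265, against 0.0196 to 0.974 over all alternatives). That value was -0.01 with epithelial scaling. In AKVPSL it was 0.25 (95% interval 0.01 to 0.50), and between the genotypes 0.20 (-0.05 to 0.44) in GFP+ and 0.24 (0.00 to 0.49) in GFP- cells.

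Of the feedback genes, Smad7 fell in the GFP+ cells of both genotypes, and Skil did not. Smad7 (Gene ID 17131, chromosome 18, 75367365 to 75395935) encodes the inhibitory SMAD and is itself induced by TGF-beta. It had 52.0, 49.5, 62.1 and 54.4 CPM in AKVPSL GFP+ libraries and 65.7, 69.2, 64.9 and 76.4 CPM in AKVPSL GFP- libraries, against 58.2, 72.5, 69.8 and 58.3 CPM in AKVPL GFP+ libraries and 84.0, 108, 112 and 112 CPM in AKVPL GFP- libraries. GFP+ libraries lay below GFP- libraries in both genotypes. The log2 difference was -0.34 ± 0.11 in AKVPSL (edgeR adjusted p = 0.0159) and -0.68 ± 0.11 in AKVPL (edgeR adjusted p = 1.00e-04). The Smad7 call in AKVPSL ended without AKVPSL GFP+ replicate 2 (-0.30, edgeR adjusted p = 0.0521, against 0.00671 to 0.0521 over all alternatives). Between the genotypes Smad7 was lower in AKVPSL in the GFP- fraction (-0.59 ± 0.11, edgeR adjusted p = 0.000143), while the value in the GFP+ fraction was -0.25 ± 0.11 (edgeR adjusted p = 0.0642).

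Skil (Gene ID 20482, chromosome 3, 31095058 to 31122923) encodes a SMAD co-repressor whose transcription TGF-beta also induces. It had 171, 149, 200.4 and 148 CPM in AKVPSL GFP+ libraries and 115, 118, 114 and 129 CPM in AKVPSL GFP- libraries, which did not overlap. In AKVPL the GFP+ libraries spread from 154 to 319.9 CPM (202, 314, 319.9 and 154 CPM) around the GFP- libraries at 219, 252, 246 and 224 CPM. Skil was higher in GFP+ cells of AKVPSL by 0.49 ± 0.18 log2 (edgeR adjusted p = 0.0300), while in AKVPL the value was 0.07 (95% interval -0.30 to 0.44). The Skil call in AKVPSL ended with no low-count filter (0.47) and without any 1 of AKVPSL GFP+ replicates 1 and 3 or AKVPSL GFP- replicates 1 to 4 (0.39 to 0.48). Between the genotypes Skil was lower in AKVPSL by -0.98 ± 0.18 in GFP- cells (edgeR adjusted p = 0.000125) and by -0.57 ± 0.18 in GFP+ cells (edgeR adjusted p = 0.0115). Skil did not pass there with only the 2 groups in the fit (-0.56) or without AKVPL GFP+ replicate 2 (-0.43) or 3 (-0.42).

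Over the 10 genes, 5 passed the threshold by sort in AKVPSL, with Tgfbr1 and Skil higher and Tgfb1, Tgfb2 and Smad7 lower in GFP+ cells, where 47.0% of all tested genes passed (22.4% higher and 24.6% lower). In AKVPL 7 passed, Smad2 higher and 6 lower, where 39.1% of all genes passed (22.6% higher and 16.5% lower). The median log2 difference of the 10 genes was 0.15 in AKVPSL, against -0.01 over all genes, and -0.55 in AKVPL, against 0.14 over all genes. GFP+ and GFP- libraries did not overlap for 5 of the 10 genes in AKVPSL, against 39.1% of all genes, and for 9 of the 10 in AKVPL, against 41.2%. Between the genotypes 6 passed in GFP+ cells (3 higher, 3 lower, against 53.0% of all genes, 24.9% higher and 28.1% lower) and 8 in GFP- cells (2 higher, 6 lower, against 62.7%, 32.0% higher and 30.7% lower). The medians were 0.08 and -0.57 there, against -0.05 and 0.00 over all genes, and the genotypes did not overlap for 5 and 8 of the 10 genes, against 51.3% and 53.2%. For the difference of sort effects 3 passed, all higher (Tgfb1, Tgfb3 and Tgfbr1), where 20.8% of all genes passed, 7.02% higher and 13.7% lower. The counts by sort in AKVPSL and between genotypes in GFP+ cells were thus near the share of all genes. The sort and genotype comparisons share libraries, so these counts are not independent of each other.

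Levels of different genes were compared on the deposited RPKM values, which are per length of gene model. In AKVPL GFP- libraries Tgfb1 led with 87.0 ± 21.2 RPKM (SD, n = 4), followed without overlap by Tgfbr2 with 37.3 ± 1.53 RPKM and Skil with 32.4 ± 2.22 RPKM. Tgfb1 was also first in AKVPSL GFP- libraries (55.4 ± 12.1 RPKM, ahead of Tgfbr2 with 34.7 ± 5.87 RPKM, with overlapping ranges). In AKVPSL GFP+ libraries the first places went to Tgfbr2 (38.9 ± 2.70 RPKM), Smad3 (35.1 ± 6.61 RPKM), Tgfb1 (31.9 ± 0.956 RPKM) and Tgfb3 (30.7 ± 4.92 RPKM), whose ranges overlapped from each to the next. In AKVPL GFP+ libraries Skil (31.9 ± 10.8 RPKM), Smad3 (30.6 ± 2.33 RPKM), Tgfbr2 (29.2 ± 2.57 RPKM) and Tgfb1 (24.8 ± 3.06 RPKM) likewise overlapped from each to the next. Tgfbr3 and Tgfb2 were the lowest in every group, at 0.598 and 0.0973 RPKM in AKVPSL GFP+ libraries and 1.14 and 2.39 RPKM in AKVPL GFP- libraries.

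Ratios within a library do not depend on the scaling between libraries. Tgfb3 over Tgfb1 was 0.796 to 1.22 in AKVPSL GFP+ libraries and 0.435 to 0.731 in AKVPSL GFP- libraries, against 0.514 to 0.720 in AKVPL GFP+ libraries and 0.226 to 0.338 in AKVPL GFP- libraries. The ligand balance was thus nearest to parity in AKVPSL GFP+ libraries and most weighted to Tgfb1 in AKVPL GFP- libraries, and neither of these groups overlapped another. Tgfbr1 over Tgfbr2 was 0.189 to 0.201 and 0.157 to 0.222 in AKVPSL GFP+ and GFP- libraries, and 0.289 to 0.344 and 0.425 to 0.447 in AKVPL GFP+ and GFP- libraries. All 8 AKVPSL libraries lay below all 8 AKVPL libraries in that ratio. Smad3 over Smad2 was 2.23 to 2.60 and 2.04 to 2.47 in AKVPSL GFP+ and GFP- libraries and 2.96 to 3.43 and 3.02 to 3.28 in AKVPL GFP+ and GFP- libraries, which parted the genotypes but not the sorts. Tgfb2 over Tgfb1 was at most 0.00776 in AKVPSL libraries and at least 0.0180 in AKVPL libraries.

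**Figure D3:**
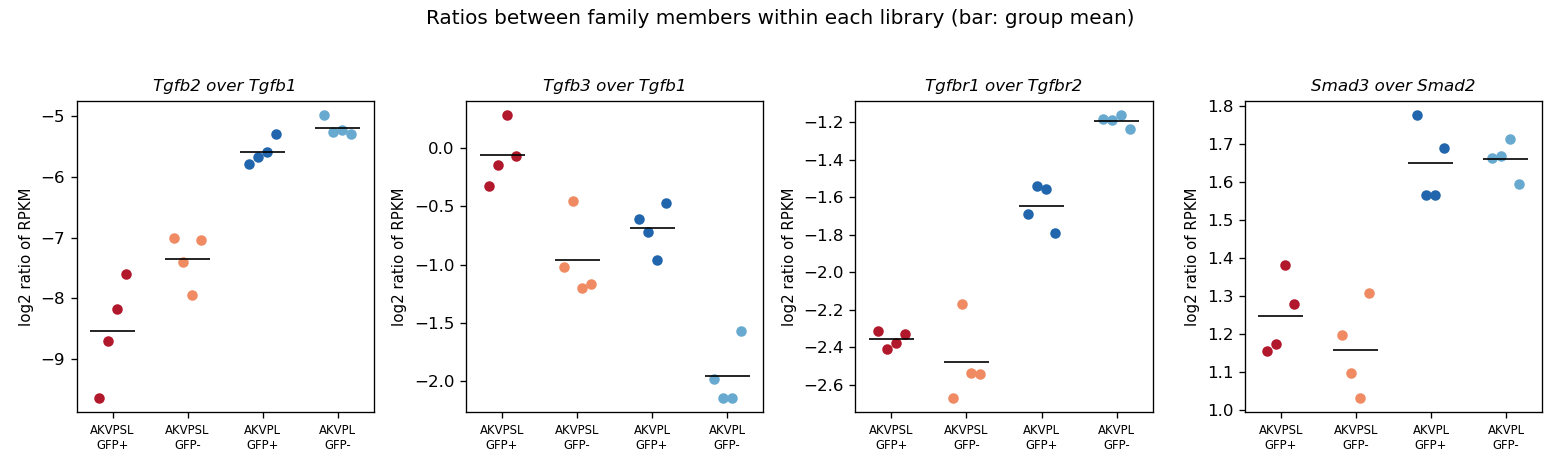
Log2 ratios of RPKM between family members within each library; points are libraries and the bar is the mean of 4. For Tgfbr1 over Tgfbr2, Smad3 over Smad2 and Tgfb2 over Tgfb1 the AKVPSL libraries on the left do not overlap the AKVPL libraries on the right.

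Genotype differences were set beside those of each gene's chromosome, since chromosomes differed in their median. Smad2, Smad7 and Smad4 lie on chromosome 18, where the median log2 difference of 458 tested genes was 0.48 in GFP+ and 0.48 in GFP- cells, the highest of 19 autosomes in GFP+ cells and the second highest, after chromosome 5, in GFP- cells. Smad2 lay 0.10 and 0.26 above that median in GFP+ and GFP- cells. Smad7, less than 1 Mb from Smad2, lay 0.73 and 1.07 log2 units below it. For Tgfb3 the median of chromosome 12 was 0.30 and 0.34, so that its difference exceeded the median by 0.71 in GFP+ cells and by 0.10 in GFP- cells. Tgfbr3 lay 0.52 and 1.38 below the median of chromosome 5 (0.48 in GFP+ and 0.50 in GFP- cells). For the other members the chromosome median was between -0.28 and 0.05. The part of chromosome-wide differences in the values of single genes was not tested.

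**Figure D4:**
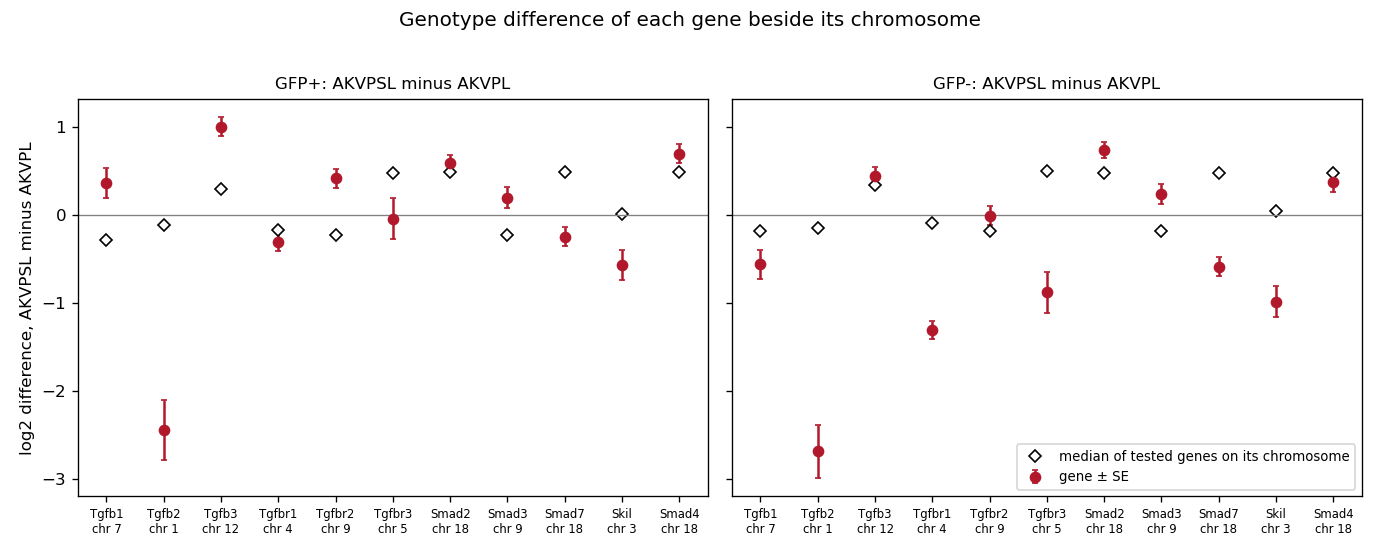
Log2 difference, AKVPSL minus AKVPL, of each member and of Smad4 (red, ± SE) beside the median over all tested genes on the same chromosome (open diamonds), in GFP+ and GFP- cells. Smad2 lies above the median of chromosome 18 (0.48) by 0.10 in GFP+ and 0.26 in GFP- cells, Smad4 lies 0.21 above it in GFP+ cells and 0.10 below it in GFP- cells, and Smad7 on the same chromosome lies below 0 in both panels.

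Smad4, the partner of Smad2 and Smad3, was examined because of the genotype names. It had 236, 222, 283 and 249 CPM in AKVPSL GFP+ libraries and 168, 150.1, 189 and 211 CPM in AKVPSL GFP- libraries. AKVPL libraries had 156, 157, 149 and 149 CPM in GFP+ and 126, 136, 133 and 159 CPM in GFP- cells. Smad4 was thus not lower in AKVPSL. It was higher by 0.70 ± 0.11 log2 in GFP+ cells (edgeR adjusted p = 2.11e-05) and 0.37 ± 0.11 in GFP- cells (edgeR adjusted p = 0.00521), the second of which was 0.08 and not past the threshold with epithelial scaling. A point change or the loss of some exons need not lower the total count of a gene, so these levels are no check of the label.

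Among 15 genes of the latent complex and ligand activation, 11 passed by sort in each genotype, 3 higher and 8 lower in GFP+ cells, where 47.0% of all genes passed in AKVPSL and 39.1% in AKVPL. Thbs1 (thrombospondin), which can activate latent ligand, was higher in GFP+ cells of AKVPSL (1.34 ± 0.19 log2, 3606 ± 778 against 1421 ± 271 CPM, SD, n = 4). In AKVPL its value was 0.63 ± 0.19, a call that ended under several alternatives, among them epithelial scaling (0.32). Mmp14, a membrane protease of stromal cells above all, was lower by -2.79 ± 0.38 in AKVPSL (11.2 ± 6.08 against 76.5 ± 24.5 CPM) and by -3.65 ± 0.39 in AKVPL (21.1 ± 6.49 against 265 ± 57.8 CPM). Between the genotypes 2 were higher and 7 lower in AKVPSL in GFP+ cells, where 53.0% of all genes passed, and 1 higher and 13 lower in GFP- cells, where 62.7% did. Ltbp4, a latent TGF-beta binding protein, was lower in AKVPSL by -2.27 ± 0.15 in GFP+ cells (206 ± 45.3 against 993 ± 17.4 CPM) and by -1.69 ± 0.15 in GFP- cells. Its relative Ltbp1 was lower in GFP+ cells by -2.31 ± 0.33 (15.9 ± 9.33 against 78.7 ± 7.29 CPM). Itgb6, the subunit of an epithelial integrin that releases latent ligand, was lower in AKVPSL by -1.18 ± 0.09 in GFP+ and -0.77 ± 0.09 in GFP- cells. The median of the list was -0.55 in GFP+ and -1.26 in GFP- cells, against -0.05 and 0.00 over all genes.

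Of 10 other receptors and receptor partners, 7 passed by sort in AKVPSL (1 higher, 6 lower, against 47.0% of all genes) and 6 in AKVPL (1 higher, 5 lower, against 39.1%). Acvrl1, a receptor known from endothelial cells, was lower in GFP+ cells by -3.15 ± 0.27 log2 in AKVPSL and -2.79 ± 0.26 in AKVPL. Of 12 endothelial markers, 10 were lower and 1, Vwf, was higher (0.95 ± 0.25) in GFP+ cells of AKVPSL. In AKVPL all 12 were lower. The part of endothelial cells in the Acvrl1 values was not tested. Pmepa1, a TGF-beta-induced protein that binds receptor-activated SMADs, was lower in AKVPSL than in AKVPL by -1.85 ± 0.12 in GFP+ cells (71.4 ± 4.03 against 258 ± 21.4 CPM) and by -1.26 ± 0.12 in GFP- cells (123 ± 16.5 against 294 ± 45.3 CPM). Strap, a receptor-binding adaptor, was higher in AKVPSL by 0.68 ± 0.10 and 1.02 ± 0.10 in GFP+ and GFP- cells, and was the only gene of the list that rose in either genotype comparison, where 6 fell in each and 53.0% (GFP+) and 62.7% (GFP-) of all genes passed. Bambi, a pseudoreceptor that blunts the signal, had sort effects that differed by 1.35 ± 0.23 (edgeR adjusted p = 0.000695), with 11.01 ± 1.24 against 8.75 ± 1.48 CPM in AKVPSL and 9.07 ± 1.55 against 18.4 ± 2.54 CPM in AKVPL.

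Of 18 tested genes among other SMADs and their regulators (Smad9 was too low), 9 were higher and 1 lower in GFP+ cells of AKVPSL, where 47.0% of all genes passed, and 5 higher and 1 lower in AKVPL, where 39.1% did. The count of 6 in AKVPL was 3 without AKVPSL GFP- replicate 1 or AKVPL GFP- replicate 2, 2 without AKVPL GFP- replicate 3, and 3 with DESeq2 size factors, with no low-count filter and on log2(RPKM + 1). Smad5, a SMAD of the BMP branch, was higher in AKVPSL GFP+ than in AKVPSL GFP- libraries by 0.76 ± 0.12 log2 (170.3 ± 27.6 against 101 ± 15.6 CPM). Between the genotypes 6 were higher and 3 lower in GFP+ cells (53.0% of all genes passed), and 5 higher and 6 lower in GFP- cells (62.7%), so both counts were near the share of all genes. Ppm1a, a phosphatase of Smad2 and Smad3, was higher in AKVPSL by 0.82 ± 0.08 in GFP+ and 0.77 ± 0.08 in GFP- cells. Nedd4l, a ubiquitin ligase that limits activated SMADs, was higher by 0.81 ± 0.08 and 0.94 ± 0.08 in GFP+ and GFP- cells. Ski, the co-repressor related to Skil, was lower in AKVPSL as Skil was, by -0.56 ± 0.10 and -0.91 ± 0.10 in GFP+ and GFP- cells.

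In the activin and nodal branch, which uses Smad2 and Smad3 through other receptors, 11 of 14 genes could be tested. By sort 5 were higher and 2 lower in AKVPSL, where 47.0% of all genes passed, and 1 higher and 2 lower in AKVPL, a smaller share than the 39.1% of all genes. Acvr1b, the main activin kinase receptor, was higher in AKVPSL than in AKVPL by 0.93 ± 0.12 log2 in GFP+ cells and by 0.45 ± 0.11 in GFP- cells, where the call ended with epithelial scaling (0.16). Inhbb, an activin subunit, was lower by -1.51 ± 0.19 and -1.54 ± 0.19 in GFP+ and GFP- cells, and the activin antagonist Fstl3 by -1.81 ± 0.16 and -1.04 ± 0.16. Between the genotypes the list had 4 higher and 6 lower genes in GFP+ cells (53.0% of all genes passed) and 2 higher and 6 lower in GFP- cells (62.7%).

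Of 8 genes known as direct targets of TGF-beta, 7 were lower and 0 higher in GFP+ cells of AKVPSL, and 7 lower and 1 higher in AKVPL, where 47.0% and 39.1% of all genes passed. The list medians were -1.09 and -1.25 log2, against -0.01 and 0.14 over all genes. Tgfbi, a secreted matrix protein, was lower by -2.64 ± 0.39 in AKVPSL (17.0 ± 6.16 against 106 ± 52.2 CPM) and -3.41 ± 0.39 in AKVPL (34.1 ± 14.8 against 362 ± 75.5 CPM). Some of these genes, Col4a1 and Tgfbi among them, are also expressed by stromal cells, and the sums of fibroblast markers moved the same way. The part of stromal cells in the target differences was not tested. Cdkn2b, a cell cycle inhibitor, was the gene higher in AKVPL (0.45 ± 0.12, not past the threshold with epithelial scaling at 0.15), and its sort effects differed by -1.14 ± 0.17 (edgeR adjusted p = 0.000217). Its levels were 58.2 ± 5.44 and 93.7 ± 12.2 CPM in AKVPSL GFP+ and GFP- libraries and 82.0 ± 11.2 and 60.0 ± 8.23 CPM in AKVPL GFP+ and GFP- libraries. Between the genotypes 2 targets were higher and 4 lower in GFP+ cells, where 53.0% of all genes passed, and 1 higher and 4 lower in GFP- cells, about the 62.7% of all genes. Itga5, the fibronectin receptor subunit, was lower in AKVPSL by -3.53 ± 0.24 in GFP+ cells (8.13 ± 2.81 against 93.3 ± 10.8 CPM) and -2.19 ± 0.22 in GFP- cells (49.1 ± 10.8 against 224 ± 50.6 CPM).

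For the difference of sort effects the lists had 2 higher and 2 lower of 15 (latent complex), 1 and 1 of 10 (receptors and partners), 2 and 0 of 18 (SMADs), 2 and 2 of 11 (activin and nodal), and 1 and 2 of 8 (targets), where 20.8% of all genes passed. These counts were unstable. The latent complex count of 4 was 0 without AKVPSL GFP- replicate 1, AKVPL GFP+ replicate 1 or AKVPL GFP- replicate 4, and 1 or 2 without AKVPSL GFP+ replicate 3 or 4, AKVPSL GFP- replicate 2 or 3, AKVPL GFP+ replicate 2 or 4 or AKVPL GFP- replicate 1, 2 or 3. It was also 1 with no low-count filter and 7 with the replicate number as a block. The SMAD count of 2 was 1 without AKVPSL GFP+ replicate 3 or 4, AKVPSL GFP- replicate 2 or 3, AKVPL GFP+ replicate 1, 2 or 4 or AKVPL GFP- replicate 1 or 3, and 4 to 7 with DESeq2 size factors, epithelial scaling, the DESeq2 Wald test or either log2 RPKM. The activin and nodal count of 4 was 2 without AKVPSL GFP+ replicate 3 and with epithelial scaling, which also gave 1 in place of 2 for the receptors and partners. The target count was 5 in place of 3 with the block.

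**Figure D5:**
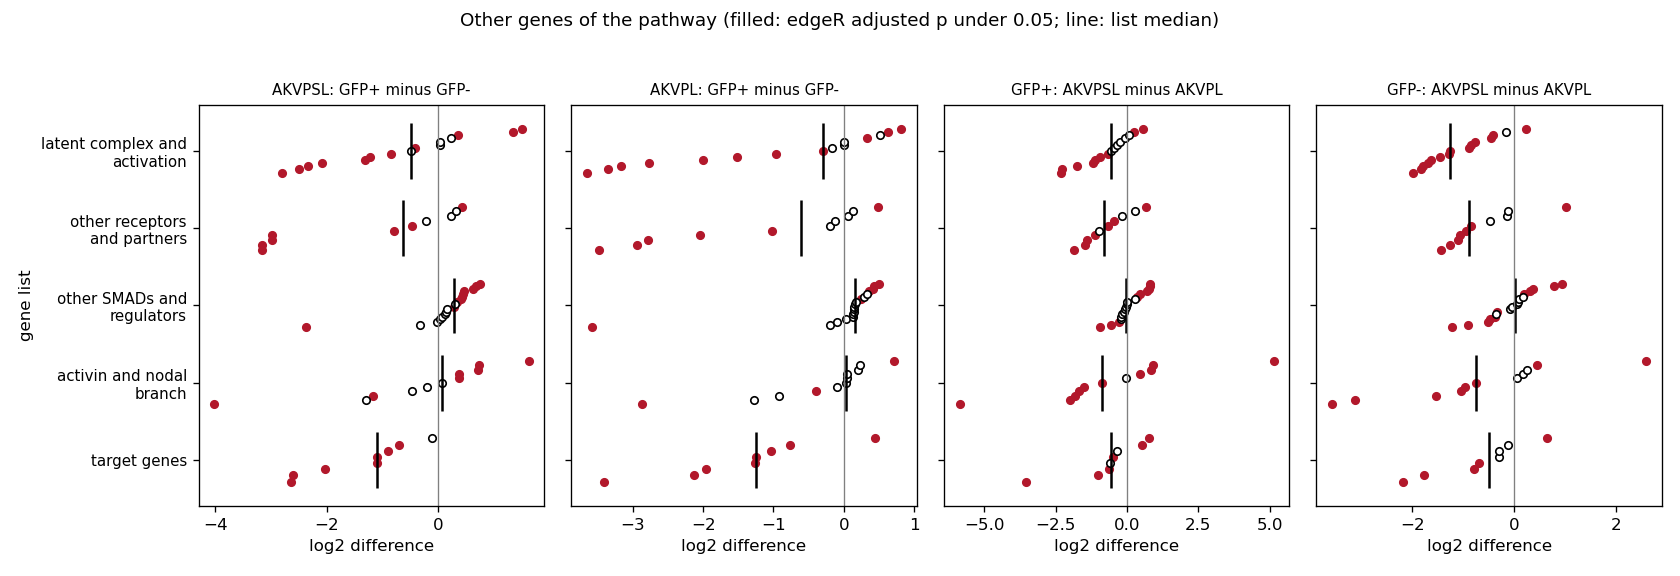
Log2 differences of the other pathway genes by list in the 4 comparisons, with a scale of its own in each panel; each point is a gene (filled, edgeR adjusted p under 0.05) and the vertical line is the median of the list. The latent complex genes lie mostly left of 0 in GFP- cells between the genotypes (13 of 15 lower), and the target genes lie left of 0 by sort (7 of 8 lower in each genotype).

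For each member the gene with the most similar profile was sought among 12308 genes by Pearson's r of log2 CPM over the 16 libraries, which fall into 4 groups, so that shared group differences alone give high values. Tgfb1 was nearest to St6galnac4 (r = 0.97), followed by Lpcat1 and Rin3 (0.96 each). Tgfb2 was nearest to Fbln2 (0.99), Cald1 and Fermt2 (0.98 each), and Tgfb3 to Pcolce (0.96), with Pcdhgb6 (0.96) and Pcdhga7 (0.95) next. Tgfbr1 was nearest to Pik3r1 (0.96), Tgfbr2 to Enpp1 (0.89), Tgfbr3 to Ciita (0.92), Smad2 to Cdk6 (0.97), Smad3 to Slc26a2 (0.92), Smad7 to Dner (0.95) and Skil to Tmcc3 (0.96). None of these genes is itself a member, and the highest r was lowest for Tgfbr2.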

How the data were processed

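RNA sequencing was read from 16 libraries, 4 per combination of genotype and sort, grouped by their titles. Per the file headers, the deposited count holds, for each gene model, the reads placed there by a unique alignment, and the deposited RPKM is a value per gene length that the authors adjusted by a size factor. The submitters' processing notes name GSNAP and GRCm38, without a strand setting or gene lengths. A RefSeq table on GRCm38.p6 gave symbols and positions and matched 31049 of 36528 IDs.

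Tests ran in R 4.3.3 with edgeR 4.0.16 on the counts: filterByExpr, TMM scaling, 1 robust quasi-likelihood fit with a mean per group over all 16 libraries, two-sided tests, and Benjamini-Hochberg adjustment over 18072 genes with a threshold of 0.05. The SE is the absolute log2 difference over the square root of F. Alternatives were DESeq2 1.42.0, limma 3.58.1 on log2(RPKM + 1) and log2(RPKM + 0.1), other scalings, no filter, only the groups compared, a replicate block, and leaving out each library. On simulated data the test recovered 156 of 200 changed genes for the sort in AKVPSL, 155 for that in AKVPL, 160 for the genotypes in GFP+ cells, 153 for those in GFP- cells, and 130 for the difference of sort effects (48% of those changed 2-fold). Of its calls 2.26% to 7.51% were false, the highest share, above the nominal 5%, between genotypes in GFP+ cells. The simulation changed 200 genes in a single group, as many up as down, with independent libraries. In the data 20.8% to 62.7% of tested genes passed per comparison, so the simulated shares need not carry over.

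The members and lists were chosen with earlier results of these data known. Named were all members, Smad4, Lgr5, the 3 genes nearest each member, and up to 3 genes each way with the smallest adjusted p per list and comparison. Which of these are printed was decided with their values in view, and Col4a1 and the markers at 0 lie outside the rule. Part of what the rule names is not reported here. Replicate numbers in the titles were checked for pairing: deviations from the group means correlated by 0.103 to 0.366 in the 8 same-numbered GFP+ and GFP- pairs, all over 0.1, so a number was taken to pair libraries within a genotype. In AKVPSL this is weak, since differently numbered pairs correlated by up to 0.380 (GFP+ replicate 3 with GFP- replicate 4), above 0.103 for the same-numbered replicates 3. The main fit did not use the pairing, which entered only in the alternative with a replicate block. In the 24 pairs of replicates the chi-square per degree of freedom was 9.05 to 73.58, so none was taken as a repeat of another and each library counts once. That spread does not show that the libraries are independent. In AKVPSL, GFP+ replicates 1 and 2 correlated positively with GFP- replicates 1 and 2 (0.251 to 0.366). The same held for replicates 3 and 4 (0.103 to 0.380). Pairs across these sets were all negative (-0.447 to -0.122). P-values treat the 4 libraries of a group as independent, which was not tested.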

Additional observations from a re-analysis of the deposited data

Results flagged for a closer look

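Sort effects (GFP+ minus GFP-) differed between the genotypes past the threshold, in edgeR's interaction test, for Tgfb1 (0.92 log2, edgeR adjusted p = 0.0106), Tgfb3 (0.56, edgeR adjusted p = 0.0121) and Tgfbr1 (1.00, edgeR adjusted p = 0.000215). In each of the 3 the AKVPL GFP- libraries, which also held the highest sums of fibroblast and leukocyte markers, stood above the AKVPL GFP+ libraries. The part of those markers in the differences was not tested.

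One library stood apart from its group: Smad7 was at 84.0 CPM in AKVPL GFP- replicate 1, against 108, 112 and 112 CPM in the other 3 libraries. The gap to the nearest library was 0.852 of the group's range. Among 40 groups of 4 libraries examined this way, chance flags about 1 in 20.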

How the results depend on the processing

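Of 50 results for the members, 29 passed the threshold, 21 of them kept their call and direction under every one of the alternatives run (25 per comparison by sort or genotype, 24 for the difference of sort effects), and 0 changed sign. The number of members called for the difference of sort effects was 3, against 7 with epithelial scaling, 5 with the DESeq2 Wald test, 6 on log2(RPKM + 1) and 3 to 5 without single libraries (5 without AKVPSL GFP- replicate 4). By sort in AKVPSL it was 5, against 3 with no low-count filter and 3 to 5 without single libraries (3 without AKVPSL GFP+ replicate 1 or 3 or AKVPSL GFP- replicate 1 or 3). Without single libraries it was 6 to 9 by sort in AKVPL, 4 to 7 between genotypes in GFP+ and 8 to 9 in GFP- cells. Scaling moved the balance of all genes called: higher genes made up 57.8% of calls by sort in AKVPL, against 42.1% with DESeq2 size factors, 44.9% on library totals and 14.5% with epithelial scaling, where the median of all genes was -0.16 in place of 0.14. For the difference of sort effects the share was 33.8%, against 49.2%, 44.2% and 75.1%, and between genotypes in GFP- cells 51.1%, against 32.6% with epithelial scaling (median -0.28 in place of 0.00).

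Some values short of the threshold changed sign. Skil by sort in AKVPL (0.07) was -0.023 with DESeq2 size factors and with the DESeq2 Wald test, -0.0048 on library totals, -0.24 with epithelial scaling, -0.013 with no filter, -0.083 and -0.088 on log2(RPKM + 1) and log2(RPKM + 0.1), -0.030 with only the 2 groups, and -0.070 to 0.25 without single libraries. Smad3 for the difference of sort effects (-0.04) was 0.051 with DESeq2 size factors and with the Wald test, 0.014 on library totals, 0.20 with epithelial scaling, 0.021 with no filter, 0.042 on RPKM with either pseudocount, and -0.18 to 0.040 without single libraries. With epithelial scaling Smad2 for the difference of sort effects was 0.10, Smad3 by sort in AKVPL was -0.0067, its GFP- genotype value -0.039, and Tgfbr2 between genotypes in GFP- cells passed as lower (-0.30). Without single libraries Tgfb2 for the difference of sort effects ran from -0.12 to 0.52, Tgfbr2 between genotypes in GFP- cells from -0.073 to 0.096, Tgfbr3 between genotypes in GFP+ cells from -0.18 to 0.20, and Tgfbr3 by sort in AKVPSL from -0.070 to 0.17. The cause was not tested.

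With the replicate number as a block, calls changed as given above for Smad3 and Tgfbr3. Between the genotypes same-numbered libraries shared only a number, and with it as a block Smad7 (-0.25, edgeR adjusted p = 0.0469, against 0.0227 to 0.198 over all alternatives) and Tgfb1 (0.38, edgeR adjusted p = 0.0411, against 0.00433 to 0.169) in GFP+ cells passed. It changed no other call of a member. Depth limits Tgfb2, with 80 reads in the 4 AKVPSL GFP+ libraries together, and its differences on log2(RPKM + 1) understate the change (-0.29 by sort in AKVPSL).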
